A study of Mus musculus with 24 samples.

Results

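Of the related transcription factors MITF, TFEB and TFE3, TFEB is the last one left in B16F10-luc2 melanoma cells edited in Mitf and Tfe3, and its loss was read by comparing a triple KO (TKO, Mitf, Tfeb and Tfe3 edited) with the MITF/TFE3 double KO (DKO, Mitf and Tfe3 edited). The libraries were taken by their labels, 3 of the TKO and 3 of the MITF/TFE3 DKO, which makes 6 of the 24 libraries of the series, and all 12010 genes of the deposited table were compared. B16F10-luc2 is a mouse melanoma line that carries a luciferase reporter. The cells grew in DMEM with serum, no treatment is given for any library, and both lines share the edits of Mitf and Tfe3. The other 18 libraries, 3 each of the parental cells, the MITF KO, TFE3 KO, TFEB KO, TFEB/TFE3 DKO and MITF/TFEB DKO, entered the same fit, and these lines gave the loss of TFEB in other backgrounds. Each KO line was isolated as a clone, so that a difference between the TKO and the MITF/TFE3 DKO holds the loss of TFEB and any other difference between 2 clones, which cannot be told apart. Nothing in the labels says that the 3 libraries of a line came from separate cultures, and p-values therefore measure the spread between these libraries.

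MITF, TFEB and TFE3 belong to the MiT family of basic helix-loop-helix leucine zipper factors, which bind DNA as dimers at E-box sequences. MITF is known for driving pigment genes and melanocyte identity. For B16-F10 cells that proliferate, the study proposes that MITF holds some differentiation genes down. TFEB and TFE3 are held in the cytoplasm by the nutrient-sensing kinase mTORC1 when nutrients are plentiful, and they move to the nucleus under starvation or lysosomal stress, where they are known for raising lysosomal and autophagy genes.

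The cut sites of the designed guides show where the coding sequence of both edited genes was targeted, with the PAM in capitals. They were read from the mouse genome build GRCm39 (mm39) by matching the guides in the study's design text.
Tfeb, chr17:48097370-48097389, plus strand: tggacacgtactgtccacctCGG
Tfe3, chrX:7631806-7631825, minus strand: cgtagaagctgtcaggatcgAGG
The Tfeb site lies in exon 3 of 9 of transcript Tfeb-202 and in the coding sequence of 22 of the 33 annotated Tfeb transcripts. The Tfe3 site lies in exon 2 of 10 of Tfe3-201 and in the coding sequence of 26 of 38 transcripts. The libraries were primed on the poly(A) tail and read the 3′ end of each transcript, away from these sites. The reads therefore do not cover the edits, and the mRNA level of an edited gene is no direct measure of its edit. The methods of the study name another Tfe3 guide, which is not shown here.

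The libraries held 18300902 to 26667877 reads on genes in the whole series and 20071912 to 26667877 in the 6 compared here. Levels are given in CPM, reads of a gene relative to the reads on all genes of its library as scaled by the authors, and fold changes are differences of log2(CPM + 1), a scale that shrinks the change of weakly expressed genes. A gene is called upregulated or downregulated at a change of at least 2-fold with an adjusted p under 0.05 in limma, and it is said to have passed the test at an adjusted p under 0.05 with a change of any size. Where every library of a line had at most 3 reads of a gene, the fold is a bound set by 3 reads per library. Of 285 named genes with an annotated transcript, 42 had a 3′ end, taken as its last 300 bases, that overlaps an exon of a gene on the other strand, among them Acta2 (Stambpl1), Car14 (Aph1a), Pmel (Dgka) and Ddit3 (Mars1), and Rny3 overlaps Gm67032 on its own strand. Use of strand in counting is not given in the sources used here, and reads of such pairs may be shared.

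Tfeb mRNA fell with its own edit. It had 10.7, 13.6 and 9.55 CPM in the DKO libraries and 3.1, 2.81 and 3.4 CPM in the TKO libraries. All TKO libraries lay below the DKO libraries, and the log2 fold change was -1.57 (SE 0.18, adjusted p = 1.5e-07, limma). Tfe3, edited in both lines, had 8.01, 9.75 and 8.14 CPM in the DKO and 21.8, 19.9 and 17.6 CPM in the TKO, a log2 fold change of 1.11 (adjusted p = 3.4e-06). The 100 genes around Tfe3 on the X chromosome had a median of 0.59 in the same comparison. Transcripts of Mitf, whose coding sequence carries a frameshift in both lines, were at 1101, 1208 and 1268 CPM in the DKO and at 349.7, 326 and 329 CPM in the TKO. The 2 groups did not overlap, with a log2 fold change of -1.83 (SE 0.09, adjusted p = 1.8e-13). The parental cells had 776 ± 18.5 CPM of Mitf (mean ± SD, n = 3), so the level was above that of the parental cells in the DKO and below it in the TKO. The study notes that a truncated MITF protein may remain in the edited cells, and its amount was not measured here.

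With loss of TFEB, 682 genes (5.68% of those tested) were upregulated and 688 (5.73%) downregulated, and for each of these the 3 TKO libraries lay on one side of the 3 DKO libraries. Interferon response genes, melanin genes and the ATF4 stress response genes lay among the falls, and contractile actin, matrix and sterol synthesis genes among the rises. At any size, 3195 genes (26.6%) passed the test as higher and 2908 (24.2%) as lower. Over all genes the TKO libraries lay above the DKO libraries for 31.8% and below them for 28.9%. With a pseudocount of 5 CPM in place of 1 the counts were 367 and 359. Among the called genes, 35 of those higher had at most 3 reads in every DKO library and 42 of those lower had at most 3 reads in every TKO library.

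**Figure D1:**
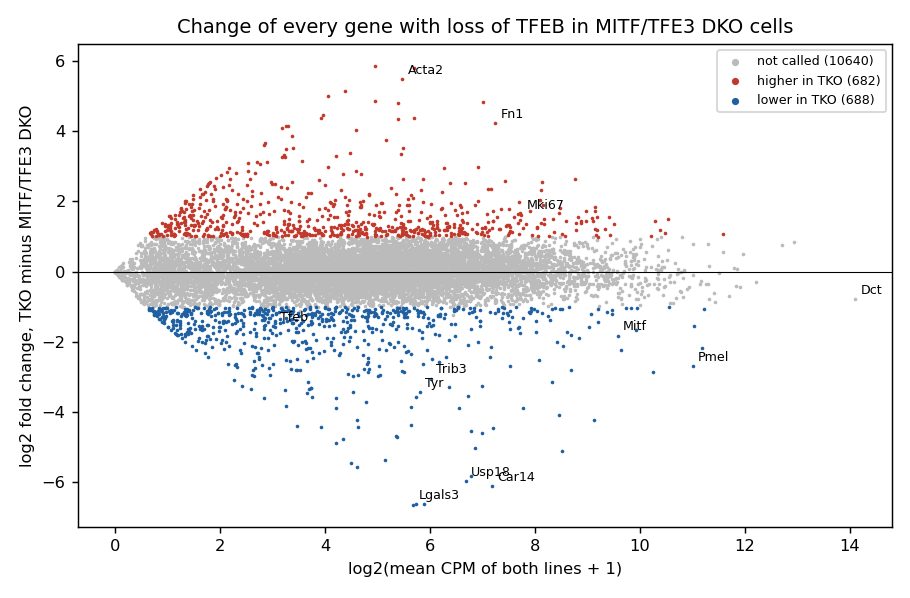
Log2 fold change of the TKO against the MITF/TFE3 DKO (y axis) for 12010 genes against their mean level in the 2 lines (x axis, log2 of CPM + 1), with 682 upregulated genes in red, 688 downregulated genes in blue and the others in grey. The largest changes exceed 5 on the log2 scale in both directions, and Dct, the gene with the highest mean of the 2 lines, lies at -0.78.

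The largest rises were in genes with little or no signal in the MITF/TFE3 DKO. Adamtsl1, which encodes a secreted ADAMTS-like glycoprotein, had 0.0415, 0.0942 and 0 CPM in the DKO libraries, at most 3 reads in each, and 57.3, 62.6 and 59.4 CPM in the TKO, which is at least 445-fold higher. Sorbs2, an adaptor of actin stress fibres and focal adhesions, had 0.913, 0.801 and 0.777 CPM in the DKO and 99.6, 102 and 102 CPM in the TKO (log2 fold change 5.81, adjusted p = 1.2e-18). The TKO libraries of both genes agreed closely, and the groups stood far apart. Acta2, smooth muscle actin, rose from 0.706, 0.754 and 1.37 CPM to 92.1, 93.96 and 70.7 CPM, a log2 fold change of 5.48 (SE 0.17), while the genes around it on chromosome 19 had a median of -0.57. Gm773 was listed at 0 in all DKO libraries and had 29.8, 33.4 and 30.01 CPM in the TKO, at least 231-fold higher.

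Small noncoding RNAs were among the rises as well. Rny3, a Y RNA that binds the Ro protein, had 6.48, 9.28 and 7.36 CPM in the DKO libraries and 276, 239 and 228 CPM in the TKO libraries (log2 fold change 4.84, SE 0.24), and Rny1, another Y RNA, had 2.7, 2.64 and 3.34 CPM and 83.2, 83.4 and 69.1 CPM (log2 fold change 4.35). Both were also above the parental level in the MITF KO, where Rny3 had 113 ± 8.99 CPM, while the parental cells had 9.79 ± 1.01 CPM. The poly(A)-primed libraries are not made for such RNAs, and what their reads stand for was not tested. The others of the 12 largest rises were Tslrn1, a long noncoding RNA (5.13), Gal3st2, a galactose sulfotransferase (4.86), Cfap100, a cilium protein (4.81), Apln, the ligand of the apelin receptor (4.46), Siglecg, a sialic acid binding receptor (4.39), and Zfp536, a zinc finger factor of the neural lineage (4.37), all given as log2 fold changes.

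The largest falls ended near 0. Lgals3, which encodes the sugar-binding protein galectin-3, had 99.8, 109.5 and 92.4 CPM in the DKO libraries and 0, 0 and 0.0430 CPM in the TKO libraries, at least 792-fold lower. Fam111a, a protease that restricts viral replication, had 46.7, 43.8 and 50.05 CPM in the DKO and was listed at 0 in the TKO, at least 369-fold lower. These TKO libraries held at most 1 read of either gene. Car14, a membrane-bound carbonic anhydrase, fell from 287, 283 and 289 CPM to 2.84, 3.0 and 3.65 CPM (log2 fold change -6.11, SE 0.12), and Hpgds, a prostaglandin D synthase, from 67.02, 67.1 and 69.8 CPM to 0.474, 0.808 and 0.731 CPM (-5.37, SE 0.12). The remaining 8 of the 12 largest falls, Ifi44, Iigp1, Usp18, Mndal, Gm4951, Ifit3, Rtp4 and Oasl2, are described with the interferon genes.

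**Figure D2:**
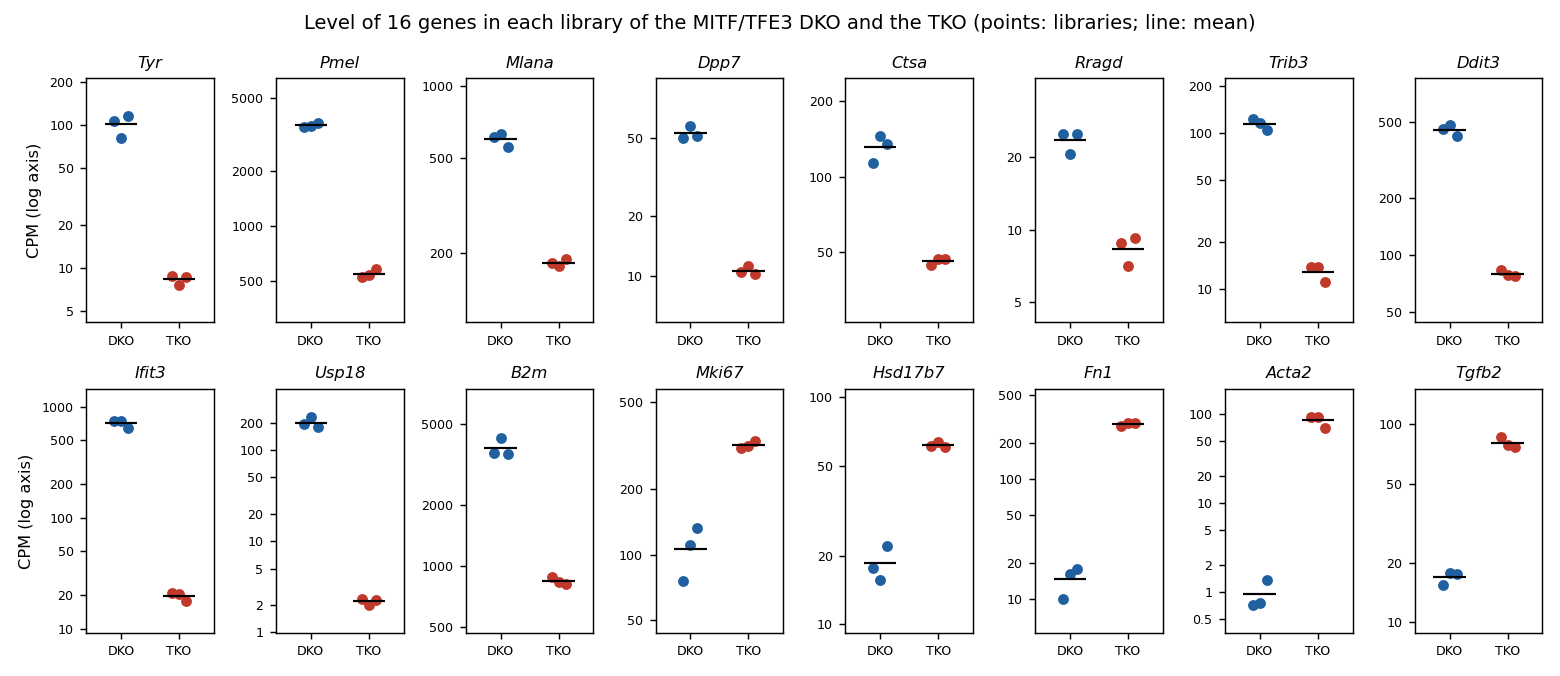
Level in CPM (y axis, log axis with its own range in each panel) of 16 named genes in the 3 MITF/TFE3 DKO libraries (blue) and the 3 TKO libraries (red), with the mean as a line. The groups do not overlap in any panel, with Tyr, Pmel, Mlana, Dpp7, Ctsa, Rragd, Trib3, Ddit3, Ifit3, Usp18 and B2m lower and Mki67, Hsd17b7, Fn1, Acta2 and Tgfb2 higher in the TKO.

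Many pigment genes were lower after the loss of TFEB in cells already edited in Mitf and Tfe3. Of 37 genes for melanin enzymes and melanosome proteins, 14 were downregulated and 0 upregulated, 23 passed the test as lower and 3 as higher, and the median log2 fold change was -0.65, against 0.01 over all genes. The shares over all genes were 5.73% downregulated and 5.68% upregulated, and 24.2% lower and 26.6% higher at any size. Tyr, the enzyme of the first step of melanin synthesis, had 107, 81.6 and 115 CPM in the DKO and 8.78, 7.66 and 8.6 CPM in the TKO (log2 fold change -3.44, SE 0.15, adjusted p = 4.0e-15). Tspan10, a tetraspanin of pigment cells, had 161, 194 and 166 CPM and 10.1, 10.8 and 11.2 CPM (-3.90, SE 0.11), and Trpm1, a cation channel of melanocytes, 21.8, 26.2 and 21.6 CPM and 0.947, 1.38 and 2.15 CPM (-3.30, SE 0.20). All TKO libraries of these genes lay far below the DKO libraries.

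Pmel, the protein of the melanosome fibrils, had 3502, 3546 and 3648 CPM in the DKO and 527, 544 and 583 CPM in the TKO, a log2 fold change of -2.69. Slc45a2, a melanosomal transporter, fell by 2.7 and Oca2, a melanosomal chloride channel, by 2.48 on the log2 scale. Mlana, a melanosome protein used as a melanoma antigen, fell by 1.71, Gpr143, a melanosomal receptor, by 1.75, and Mc1r, the melanocortin receptor, by 1.58, the last within a stretch whose median was -0.75. Dct and Tyrp1, the other enzymes of the pathway, kept more of their level. Dct had 20990, 23250 and 22850 CPM in the DKO and 12750, 12720 and 13660 CPM in the TKO, which passed the test with a log2 fold change of -0.78. Tyrp1 fell from 2995, 3196 and 3217 CPM to 1074, 1063 and 1099 CPM (-1.54). Rab38, which sorts melanin enzymes to the melanosome, spread widely in the DKO, with 712, 286 and 478 CPM against 314, 362 and 419 CPM in the TKO, and did not pass the test (adjusted p = 0.47). The motif CATGTG, an E-box variant found at pigment genes, shows in the promoters of Tyr, Trpm1 and Tspan10. Promoters here are those of RefSeq for build GRCm38.p6, from 250 bases before to 50 after the start of a gene, searched on both strands, and 9647 of the 12010 genes had one. The windows printed below and with later gene groups hold 30 bases along the strand of the gene, were placed on GRCm39 by exact match, and have the motif in capitals, where Tspan10 has it on the other strand.
Tyr, chr7:87142724-87142753, minus strand: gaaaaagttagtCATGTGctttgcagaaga
Trpm1, chr7:63803430-63803459, plus strand: ccaaatcctcatCATGTGcccaccccaaac
Tspan10, chr11:120333424-120333453, plus strand: aatgtgactcctCACATGataccactgtga
Among the 7 melanocyte markers 5 were downregulated, and Sox10, the neural crest factor that keeps the lineage, was higher (632, 792 and 635 CPM in the DKO, 1036, 994 and 988 CPM in the TKO, log2 fold change 0.56).

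**Figure D3:**
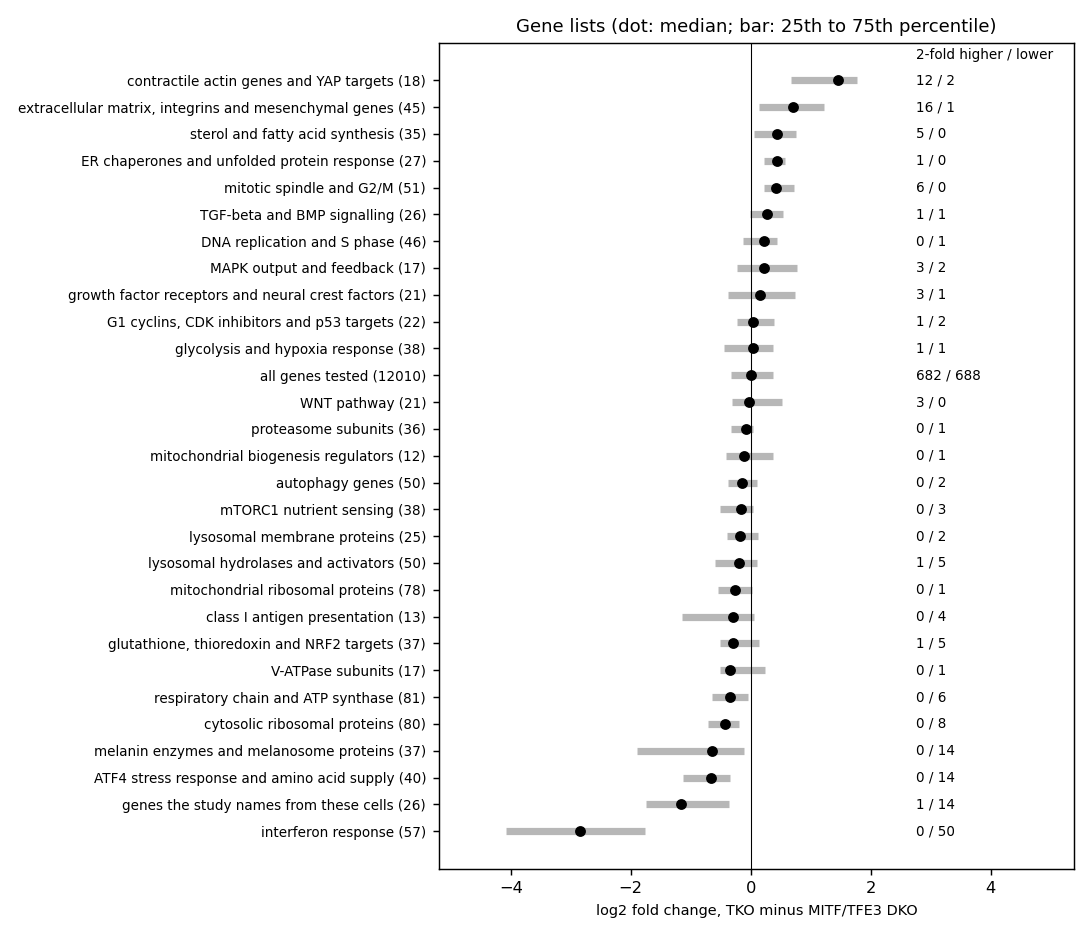
Median log2 fold change of the TKO against the MITF/TFE3 DKO for 28 gene lists and for all genes (x axis), with the number of genes in the table after each name, bars from the 25th to the 75th percentile of the members, and at the right the number upregulated and downregulated. Interferon response genes have the lowest median, at -2.85, and contractile actin genes and YAP targets the highest, at 1.46.

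Lysosomal genes are those for which TFEB is best known. Of 50 lysosomal hydrolases and activators 5 were downregulated and 1 upregulated, against 5.73% and 5.68% of all genes. At any size 22 were lower and 5 higher, against 24.2% and 26.6% of all genes, and the median log2 fold change was -0.20. Dpp7, a dipeptidyl peptidase, had 49.95, 57.1 and 51.2 CPM in the DKO and 10.5, 11.2 and 10.2 CPM in the TKO (log2 fold change -2.21, SE 0.12, adjusted p = 4.6e-13), and Ctsa, cathepsin A, 113, 146 and 135 CPM and 44.4, 46.98 and 46.96 CPM (-1.48, SE 0.08). The groups of both genes were far apart. Grn, the progranulin gene, had 616, 929 and 718 CPM in the DKO and 349, 301 and 316 CPM in the TKO (-1.21). Hexa, a hexosaminidase subunit, fell by 1.17 and Gla, alpha-galactosidase A, by 1.03. Ctso, cathepsin O, went the other way, from 0.0415, 0.0942 and 0.274 CPM to 4.74, 3.71 and 4.21 CPM (2.20). The family binds the E-box CACGTG, and its extended form TCACGTGA, known as the CLEAR element of lysosomal genes, was in the promoters of Dpp7, Ctsa and Gla.
Dpp7, chr2:25246400-25246429, minus strand: ccgccagactaTCACGTGAtgctgccccgc
Ctsa, chr2:164675663-164675692, plus strand: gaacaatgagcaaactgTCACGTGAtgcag
Gla, chrX:133501964-133501993, minus strand: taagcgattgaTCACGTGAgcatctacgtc
Both motifs read the same on either strand, and each TCACGTGA also counts as a CACGTG. The printed Dpp7 window overlaps exons of another gene, Gm46732, and the Gla window exons of Hnrnph2, while the Ctsa window overlaps exons of Ctsa itself.

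The V-ATPase pump, which acidifies the lysosome, had 1 of 17 subunits downregulated, near the 5.73% of all genes. At any size 8 were lower and 4 higher, against 24.2% and 26.6% of all genes. Atp6v1d had 384, 390.1 and 349.5 CPM in the DKO and 142, 143 and 137 CPM in the TKO (log2 fold change -1.40, in a stretch with a median of -0.41). Atp6v0d1 passed the test as lower, just short of 2-fold (109, 123 and 100.3 CPM against 54.4, 55.6 and 54.5 CPM), and Atp6v0e and Atp6v0a2 were higher (0.66 and 0.58). Of 25 lysosomal membrane proteins 2 were downregulated, again near the share of all genes, the potassium and proton channel Tmem175 (13.1, 15.97 and 14.3 CPM against 4.81, 3.76 and 5.2 CPM, -1.47) and the peptide transporter Abcb9 (-1.15). Lamp2, a main protein of the lysosomal membrane, was higher, with 166, 173 and 178 CPM in the DKO and 259, 252 and 261 CPM in the TKO (0.58), in a stretch of the X chromosome with a median of 0.52.

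Autophagy genes had 2 of 50 members downregulated, against 5.73% of all genes, with 16 lower and 5 higher at any size, against 24.2% and 26.6%. Tecpr1, which joins autophagosomes to lysosomes, had 356, 422 and 406 CPM in the DKO and 122, 115 and 122 CPM in the TKO (log2 fold change -1.71, SE 0.08). Map1lc3b, the LC3B protein of the autophagosome membrane, had 157, 159.8 and 143 CPM and 73.6, 65.4 and 67.4 CPM (-1.15), in a stretch of chromosome 8 with a median of -0.69. Sqstm1, the cargo receptor p62, passed the test as lower at 649, 789 and 618 CPM against 429.5, 412 and 410.1 CPM (-0.71), and Ulk2, a kinase that starts autophagy, and Rubcn, an inhibitor, as higher (0.71 and 0.83). Genes of mTORC1 nutrient sensing had 3 of 38 members downregulated, near the 5.73% of all genes. At any size 13 were lower and 3 higher, against 24.2% and 26.6% of all genes. The downregulated members were Rragd, the Rag GTPase that docks mTORC1 on the lysosome (24.9, 20.6 and 24.9 CPM in the DKO, 8.78, 7.04 and 9.2 CPM in the TKO, -1.39), Flcn, folliculin, the activator of that Rag (55.7, 45.4 and 53.6 CPM, 19.6, 22.7 and 24.4 CPM, -1.18), and Deptor, an inhibitor within the mTOR complexes (325, 454 and 381 CPM, 176, 166 and 167 CPM, -1.17). Rraga passed the test as lower (-0.62), as did Sesn2, a sensor of leucine (-0.86).

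Most genes of the ATF4 stress response and amino acid supply passed the test as lower. ATF4 is the factor translated when the integrated stress response slows protein synthesis, and its targets import and make amino acids. Of 40 members 14 were downregulated and 0 upregulated, 31 passed the test as lower and 1 as higher, and the median log2 fold change was -0.67. Over all genes 5.73% were downregulated and 5.68% upregulated, and 24.2% were lower and 26.6% higher at any size. Trib3, a pseudokinase that restrains ATF4 and AKT, had 123, 115 and 104 CPM in the DKO and 13.8, 13.8 and 11.1 CPM in the TKO (log2 fold change -3.05, SE 0.12, adjusted p = 1.4e-15). Ddit3, the death factor CHOP, had 460.1, 487 and 426 CPM and 83.2, 77.6 and 77.1 CPM (-2.51, SE 0.11). The TKO level of both was below that of the parental cells, which had 66.1 ± 7.47 CPM of Trib3 and 230.0 ± 24.6 CPM of Ddit3. Slc7a11, the cystine importer of system xc-, had 12.1, 10.2 and 14.6 CPM in the DKO and 0.401, 1.19 and 1.46 CPM in the TKO (-2.75), and Chac1, which degrades glutathione, 87.2, 76.9 and 70.8 CPM and 15.5, 15.1 and 15.8 CPM (-2.26). Gdf15, a stress cytokine (-1.98), Pycr1, for proline synthesis (-1.36), Aldh18a1, for the step before it (-1.35), and Slc1a4, a neutral amino acid transporter (-1.29), were downregulated as well. The motif TGATGNAAN, a core of the element that ATF4 binds with its partners, was in the promoter of Slc7a11 and, on the other strand, of Chac1.
Slc7a11, chr3:50398109-50398138, minus strand: ctcatgtggcTGATGCAAAcctggagaatt
Chac1, chr2:119181519-119181548, plus strand: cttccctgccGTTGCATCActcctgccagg
The windows show these letters where genes of the list fell, and binding was not measured.

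More than 1 in 2 of the chaperones of the endoplasmic reticulum passed the test as higher, by small amounts. Of 27 members 16 passed the test as higher and 1 as lower, 1 was upregulated, and the median log2 fold change was 0.44. Over all genes 26.6% were higher and 24.2% lower at any size. The summed level of the list was lowest in the MITF/TFE3 DKO, at 5821 to 6209 CPM. It was 8239 to 8331 CPM in the TKO, near the 7728 to 8303 CPM of the parental cells, and 7366 to 9008 CPM across all lines but that DKO. The median of the member means did not set the DKO apart (112 CPM, against 108 CPM in the TKO and 110 CPM in the parental cells). Pdia4, a disulfide isomerase, had 128, 195 and 139 CPM in the DKO and 375, 368 and 359 CPM in the TKO (1.27), and Hsp90b1, the chaperone GRP94, 822, 606 and 868 CPM and 1276, 1332 and 1345 CPM (0.80). Herpud1, of the degradation arm, was the member that fell (-0.67).

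Sterol and fatty acid synthesis genes had 5 of 35 members upregulated and 0 downregulated, 22 higher and 3 lower at any size, and a median of 0.44. The shares over all genes were 5.68% and 5.73%, and 26.6% and 24.2% at any size. Without MITF/TFE3 DKO replicate 2, 3 of them were upregulated. Hsd17b7, of cholesterol synthesis, rose from 17.8, 15.7 and 22.2 CPM to 61.1, 63.4 and 60.2 CPM (log2 fold change 1.69, SE 0.13, adjusted p = 1.3e-10). The 2 groups of libraries did not overlap. Srebf2, the factor that drives this pathway, had 40.5, 33.1 and 46.9 CPM in the DKO and 86.3, 91.5 and 79.9 CPM in the TKO (1.09). Srebf1, its relative for fatty acids, had 10.2, 4.66 and 10.3 CPM and 13.4, 20.7 and 18.8 CPM (1.04, SE 0.40), a call that was lost when DKO replicate 2, TKO replicate 2 or TKO replicate 3 was left out. Dhcr7, the last enzyme of cholesterol synthesis, rose from 38.1, 43.4 and 39.4 CPM to 87.98, 78.4 and 78.5 CPM in a stretch of chromosome 7 with a median of 0.49. Scd1, the desaturase that makes oleic acid, had 7.68, 6.69 and 5.99 CPM in the DKO and 7.07, 8.75 and 8.99 CPM in the TKO and did not pass the test (adjusted p = 0.12).

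Of 38 glycolysis and hypoxia genes 1 was upregulated and 1 downregulated, against 5.68% and 5.73% of all genes, and the median was 0.04. Ldha, lactate dehydrogenase A, had 748, 697 and 676 CPM in the DKO and 1385, 1332 and 1343 CPM in the TKO (0.94, in a stretch with a median of 0.42), while its partner Ldhb was lower (-0.81). Car9, the hypoxia-induced carbonic anhydrase, had 8.26, 2.87 and 5.53 CPM and 0.364, 0.523 and 0.645 CPM (-2.03), and Egln3, an oxygen sensor, 0.498, 0.518 and 1.14 CPM and 4.59, 6.99 and 6.49 CPM (2.03).

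Mitochondrial and ribosomal genes were lower by small amounts across many members. Of 81 subunits of the respiratory chain and ATP synthase 45 passed the test as lower and 2 as higher, against 24.2% and 26.6% of all genes. Of these subunits 6 were downregulated, against 5.73% of all genes, and the median was -0.35. Cox4i1, a core subunit of complex IV, had 1051, 1031 and 894 CPM in the DKO and 454, 424 and 408 CPM in the TKO (-1.21, in a stretch with a median of -0.67), and Uqcr10, of complex III, 979.7, 985 and 767 CPM and 422, 396 and 402 CPM (-1.15). Ppargc1a, the PGC-1α coactivator of mitochondrial biogenesis, fell from 169, 189.9 and 220.4 CPM to 46.1, 46.4 and 48.2 CPM (log2 fold change -2.01, SE 0.12), the 1 downregulated member of 12 regulators, and Tfam, of mitochondrial DNA, did not pass the test (-0.25). Mitochondrial ribosomal proteins had 38 of 78 lower and 5 higher, with 1 downregulated, Mrps18a (-1.21).

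Cytosolic ribosomal proteins had 44 of 80 members lower and 0 higher at any size, with 8 downregulated and a median of -0.43. The shares over all genes were 24.2% lower and 26.6% higher, with 5.73% downregulated. Rpl22l1, a paralog of Rpl22 found in part of the ribosomes, had 136, 126 and 128 CPM in the DKO and 31.2, 34.8 and 33.2 CPM in the TKO (-1.94). Rps7 and Rplp0, of the small and large subunit, were at -1.04 and -1.02. Ribosomal protein genes have near-identical pseudogenes, and how reads were divided between copies is not given in the sources used here. The summed level of the list ran from 83940 to 100700 CPM in the DKO libraries and from 68820 to 69900 CPM in the TKO libraries. Proteasome subunits had 3 of 36 higher and 10 lower at any size, against 26.6% and 24.2% of all genes.

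Most mitotic genes passed the test as higher. Of 51 genes of the mitotic spindle and G2/M 6 were upregulated and 0 downregulated, 32 passed the test as higher and 3 as lower, and the median was 0.43. Among all genes 5.68% were upregulated and 5.73% downregulated, and 26.6% were higher and 24.2% lower at any size. Mki67, the proliferation marker Ki-67, had 75.4, 110.4 and 133 CPM in the DKO and 309, 317 and 334 CPM in the TKO (log2 fold change 1.62, SE 0.15, adjusted p = 6.1e-09). Across the lines, Mki67 was lowest in the MITF/TFE3 DKO, with 106 ± 28.8 CPM, while the parental cells had 258 ± 2.94 CPM and the MITF KO 232 ± 9.26 CPM. Prc1 (1.45), Aspm (1.42), Cenpf (1.39), Anln (1.11) and Nuf2 (1.02), of the spindle midzone, spindle pole, kinetochore, contractile ring and kinetochore, were the other upregulated members. Of these, Mki67 and Prc1 lie in stretches of chromosome 7 with medians of 0.47 and 0.42, and Aspm, Cenpf and Nuf2 in stretches of chromosome 1 with medians of 0.50, 0.46 and 0.45. Anln, on chromosome 9, had neighbours at -0.12.

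DNA replication and S phase genes had 18 of 46 higher and 8 lower at any size, against 26.6% and 24.2% of all genes. Cdt1, which licenses replication origins, was the 1 downregulated member (154, 149.9 and 150.3 CPM against 73.7, 70.3 and 78.2 CPM, -1.02), with a neighbour median of -0.75. Among 22 G1 cyclins, CDK inhibitors and p53 targets, Cdkn1c, the inhibitor p57, rose from 5.02, 6.22 and 5.62 CPM to 18.8, 24.1 and 23.1 CPM (1.79). This gene lies on chromosome 7, where the medians of the stretches ran from 0.35 to 0.58. Cdk2, whose gene shares a promoter region with Pmel and is controlled by MITF in melanocytes, fell from 221, 158 and 204 CPM to 76.8, 87.4 and 92.7 CPM (-1.16), and Trp53inp1, a p53 target, from 49.3, 55.4 and 63.5 CPM to 25.2, 24.4 and 25.7 CPM (-1.12).

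The interferon response had the lowest median of the 28 lists. These genes are switched on by type I and II interferons through STAT and IRF factors and make proteins against viruses. Of 57 members 50 were downregulated and 0 upregulated, 53 passed the test as lower, and the median log2 fold change was -2.85. Among all genes 5.73% were downregulated, 5.68% upregulated and 24.2% lower at any size. Ifit3, which blocks viral RNA translation, had 746, 744 and 649 CPM in the DKO and 20.7, 20.4 and 17.7 CPM in the TKO (log2 fold change -5.11, SE 0.08, adjusted p = 7.3e-23). Usp18, the protease that removes ISG15 and damps interferon signalling, had 193, 230.3 and 179.5 CPM and 2.33, 2.0 and 2.28 CPM (-5.97, SE 0.12), and Ifi44 96.6, 111 and 105 CPM and 0.219, 0 and 0 CPM (-6.62). All TKO libraries of these genes lay far below the DKO libraries, and for Usp18 and Ifi44 close to 0. The GTPase gene Iigp1 had 110.1, 120.1 and 119.8 CPM in the DKO and 0.619, 0 and 0.0860 CPM in the TKO (-6.61). Rtp4, a receptor transporter, had 232, 213 and 225 CPM and 5.76, 6.66 and 5.33 CPM (-5.02), and Oasl2, of the oligoadenylate synthetase family, 29.1, 39.1 and 36.3 CPM and 0.328, 0.190 and 0.0860 CPM (-4.89). These 6 were among the 12 largest falls of the table. Outside the list, Mndal, of the family of interferon-induced DNA sensors, fell from 212, 209 and 220.3 CPM to 2.99, 2.62 and 2.88 CPM (-5.81), and Gm4951, a gene of the interferon-induced GTPase family, had 39.1, 47.4 and 42.2 CPM in the DKO and was listed at 0 in the TKO, at least 338-fold lower. Several of these belong to families of similar genes, such as Ifit3 and Ifit3b, between which reads may be divided. GAAA repeated after any 2 bases, a core of the interferon-stimulated response element (ISRE), was in the promoters of Ifit3, at 2 places on the other strand, and B2m, the light chain of the class I molecule.
Ifit3, chr19:34560763-34560792, plus strand: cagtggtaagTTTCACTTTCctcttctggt
Ifit3, chr19:34560797-34560826, plus strand: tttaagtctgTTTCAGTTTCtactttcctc
B2m, chr2:121978019-121978048, plus strand: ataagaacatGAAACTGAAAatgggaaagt

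Across the 8 lines the interferon genes did not order by the number of factors lost. Their summed level in the libraries was 8335 to 8731 CPM in the parental cells, 426 to 443 CPM in the MITF KO and 4733 to 4970 CPM in the TFE3 KO. The TFEB KO had 4939 to 5170 CPM and the TFEB/TFE3 DKO 5851 to 6144 CPM. Among the lines that lost MITF and another factor it was 7828 to 8280 CPM (MITF/TFE3 DKO) and 10120 to 10430 CPM (MITF/TFEB DKO), and in the TKO 1123 to 1179 CPM. The 2 lowest sums were those of the MITF KO and the TKO, and both DKOs without MITF lay far above them. Usp18 was likewise lowest in the MITF KO and the TKO, with 185 ± 1.34 CPM in the parental cells, 0.685 ± 0.265 CPM after the edit of Mitf alone, 273 ± 17.8 CPM after the edits of Mitf and Tfeb, and 2.2 ± 0.180 CPM with all 3 genes edited. Each line is 1 clone, and a difference of the genotype and of the clone cannot be told apart.

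**Figure D4:**
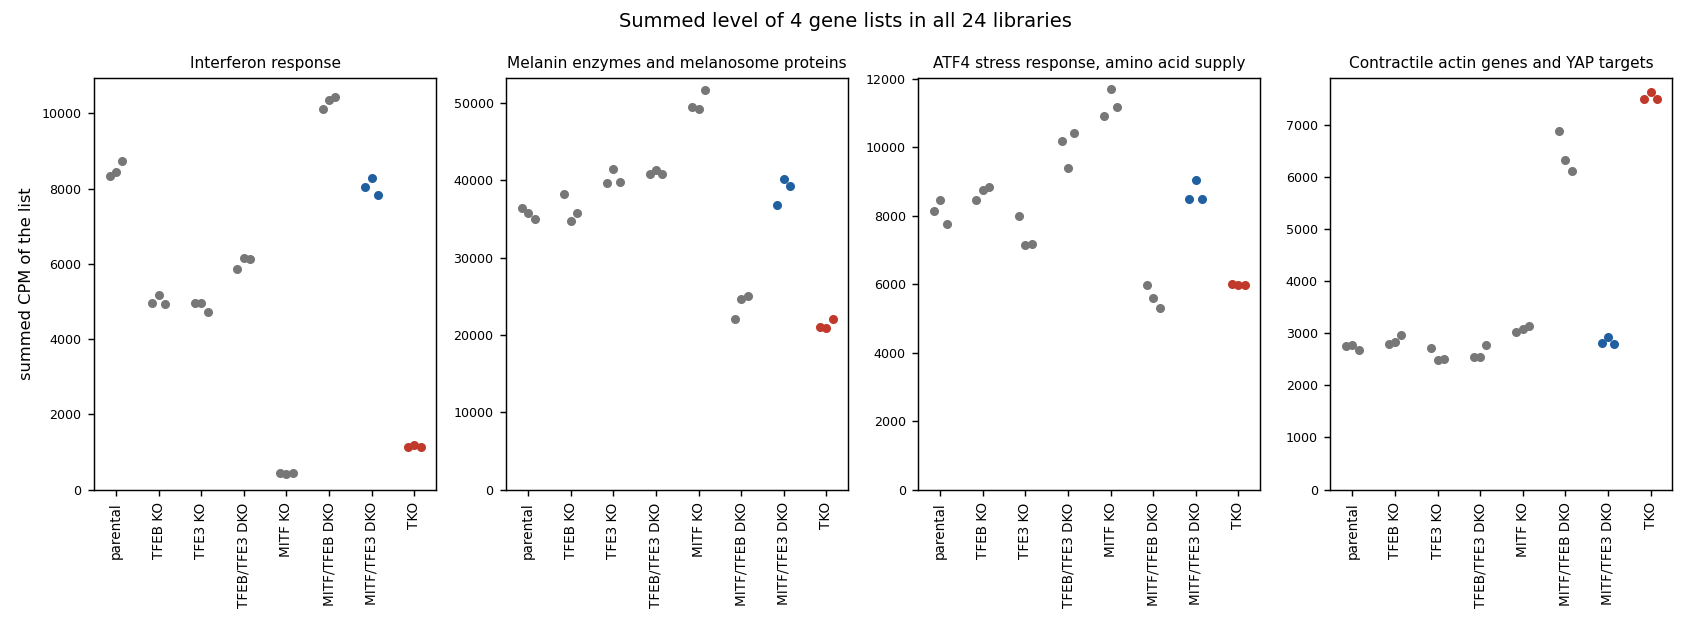
Summed CPM of 4 gene lists (y axis, from 0) in each of the 24 libraries, ordered by line, with the MITF/TFE3 DKO in blue, the TKO in red and the other lines in grey. The interferon sum is low in the MITF KO and the TKO, the ATF4 sum is lowest and the contractile sum highest in the 2 lines that lack both MITF and TFEB, and the melanin sum of the TKO, at 20870 to 22080 CPM, is the lowest of the 8 lines.

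Class I antigen presentation, which interferon raises, had 4 of 13 genes downregulated, against 5.73% of all genes. At any size 5 were lower and 1 higher, against 24.2% and 26.6% of all genes, and 7 did not pass the test. B2m, whose promoter is shown with the interferon genes, had 3586, 4287 and 3576 CPM in the DKO and 882, 829.7 and 812 CPM in the TKO (log2 fold change -2.18, SE 0.13). Tap1, of the peptide transporter, had 7.97, 10.8 and 8.04 CPM and 1.57, 0.618 and 1.76 CPM (-2.13), and Nlrc5, the activator of class I genes, 8.64, 9.61 and 8.96 CPM and 2.81, 2.85 and 2.88 CPM (-1.39). Psmb9, an immunoproteasome subunit, was also downregulated (-1.15). H2-D1, a heavy chain, had 162, 120.4 and 145 CPM and 104, 113 and 126 CPM and did not pass the test (adjusted p = 0.15), and H2-K1 was listed at 0 in all 6 libraries. Class I heavy chains are near copies of each other, so their reads may be divided.

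Many genes of the matrix and of the contractile cytoskeleton were higher in the TKO. Of 45 genes for extracellular matrix, integrins and mesenchymal proteins 16 were upregulated and 1 downregulated, 28 were higher and 8 lower at any size, and the median was 0.71. The shares over all genes were 5.68% and 5.73%, and 26.6% and 24.2% at any size. Fn1, fibronectin, had 9.92, 16.2 and 17.9 CPM in the DKO and 273, 292 and 295 CPM in the TKO (log2 fold change 4.24, SE 0.20, adjusted p = 2.8e-14). Col6a3, a collagen VI chain, had 0.457, 0 and 0.640 CPM and 10.3, 11.9 and 9.68 CPM (3.12), and Thbs1, thrombospondin 1, 0.125, 0 and 0.503 CPM and 4.55, 7.51 and 3.78 CPM (2.35). Col5a1, another collagen (1.91), Cdh2, N-cadherin (1.53), and Loxl2, which crosslinks collagen (1.69), rose too. Fn1 stood at 16.8 ± 3.78 CPM in the parental cells and at 22.9 ± 3.36 CPM after the edit of Mitf alone. With Mitf and Tfeb edited it was at 181 ± 9.99 CPM. The 1 downregulated member was the integrin gene Itgb3, named here after its value was seen, and without TKO replicate 1 there were 3.

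All 18 contractile actin genes and YAP targets passed the test, 15 as higher and 3 as lower, with 12 upregulated, 2 downregulated and a median of 1.46. Over all genes 26.6% were higher and 24.2% lower at any size, with 5.68% upregulated and 5.73% downregulated. Ccn1 and Ccn2, matricellular proteins and classical targets of YAP, had 10.7, 7.54 and 9.05 CPM and 1.87, 0.236 and 2.47 CPM in the DKO. In the TKO they had 37.4, 48.8 and 51.99 CPM (2.22) and 14.1, 21.1 and 24.5 CPM (3.15). Tpm1, a tropomyosin, rose from 813, 769.5 and 759 CPM to 2189, 2181 and 2194 CPM (1.49), and Flna, the actin crosslinker filamin A, from 176, 308 and 263 CPM to 875, 885 and 870.1 CPM (1.85). Myh9, the heavy chain of nonmuscle myosin (1.49), Cald1, caldesmon (1.44), Cnn2, a calponin (1.49), Tpm4 (1.44) and Ankrd1, a YAP target (1.57), were upregulated as well. Against these, Myl9, a myosin light chain, fell from 10.7, 11.2 and 8.27 CPM to 1.17, 0.618 and 0.258 CPM (-2.74), Actg2, enteric smooth muscle actin, from 9.88, 10.9 and 8.91 CPM to 1.17, 1.28 and 1.12 CPM (-2.31), and Tpm2, a tropomyosin with 1.12, 1.32 and 0.366 CPM in the DKO, was listed at 0 in the TKO, at least 7.37-fold lower.

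Among 26 genes of TGF-beta and BMP signalling, Tgfb2, a ligand, rose from 15.4, 17.8 and 17.5 CPM to 86.3, 78.5 and 76.5 CPM (2.19, with a neighbour median of 0.46), and Id2, an inhibitor of helix-loop-helix factors induced by BMP, fell from 587, 603 and 547 CPM to 66.4, 60.9 and 66.01 CPM (-3.15). They were the 2 called members, and 10 were higher and 3 lower at any size. Of all genes 26.6% were higher and 24.2% lower at any size, and 5.68% were upregulated and 5.73% downregulated. Of 21 growth factor receptors and neural crest factors 10 passed the test as higher and 6 as lower, and 3 were upregulated, the insulin-like growth factor receptor Igf1r (22.96, 25.5 and 30.2 CPM against 95.6, 104 and 107 CPM, 1.93), the intermediate filament gene Nes (63.1, 94.5 and 93.3 CPM against 322, 340.4 and 326 CPM, 1.99) and the neuregulin receptor Erbb3 (1.22). Igf1r lies on chromosome 7, where the medians of the stretches ran from 0.35 to 0.58. Gfra1, a receptor of GDNF, was downregulated, with 2.87, 2.78 and 2.83 CPM in the DKO and 0, 0 and 0.0860 CPM in the TKO, at least 22.3-fold lower. Axl, a receptor linked to invasive melanoma cells, had 21.2, 23.4 and 21.6 CPM and 38.1, 35.8 and 38.2 CPM (0.73), and Met, the receptor of hepatocyte growth factor, 34.3, 51.3 and 46.9 CPM and 27.2, 22.5 and 24.5 CPM (-0.79).

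Of 17 MAPK output and feedback genes 7 passed the test as higher and 3 as lower, with 3 upregulated and 2 downregulated. Over all genes tested, 26.6% were higher and 24.2% lower at any size, and 5.68% were upregulated and 5.73% downregulated. Dusp4, a phosphatase of nuclear ERK, fell from 23.4, 24.3 and 23.5 CPM to 3.97, 3.99 and 3.83 CPM (-2.33), and Etv1 fell as well (-1.12). Fosl2, a subunit of AP-1, rose from 14.9, 20.3 and 22.1 CPM to 75.7, 68.7 and 74.99 CPM (1.90), with Etv5 (1.27) and Fos (1.05). WNT pathway genes had a median of -0.03, with 6 of 21 higher and 4 lower at any size. The 3 upregulated were the ligand Wnt6 (1.29), the receptor Fzd2 (1.58) and Lgr4 (1.07), while Axin2, a feedback target, passed the test as lower (-0.59). Of 37 glutathione, thioredoxin and NRF2 genes 5 were downregulated and 1 upregulated. Fth1, ferritin heavy chain, which stores iron, fell from 1570, 1506 and 1370 CPM to 469, 461 and 466 CPM (-1.67, with neighbours at -0.44), Hmox1, which degrades heme, from 19.4, 16.8 and 16.5 CPM to 6.92, 7.37 and 7.01 CPM (-1.19), and Prdx6, a peroxiredoxin, rose from 405, 448 and 382 CPM to 1093, 1023 and 1024 CPM (1.35, with neighbours at 0.47).

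Of the 26 genes that the study names from these cells, 14 were downregulated and 1, Tfe3, was upregulated, against 5.73% and 5.68% of all genes. The study names them in describing these libraries, so their count is not independent evidence of a direction. Nampt, the rate-limiting enzyme of NAD salvage, had 83.5, 75.7 and 79.2 CPM in the DKO and 33.5, 36.4 and 35.5 CPM in the TKO (-1.15). Kit, the receptor of stem cell factor, was at or below 3 reads in every library of both lines, and Ngfr, a neural crest receptor, had 0.664, 0.612 and 0.731 CPM and 0.328, 0.0476 and 0.731 CPM and did not pass the test.

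Most markers of other cell types were not in the table, and of those that were, Krt14 was well above 0 in the TKO. Of 6 immune, 5 endothelial, 5 keratinocyte and 5 fibroblast markers, 1 each was in the table. Lyz2, of macrophages, had 1.99, 1.27 and 1.42 CPM in the DKO and 2.84, 3.28 and 3.65 CPM in the TKO, Pecam1, of endothelium, 1.83, 2.03 and 1.1 CPM and 0, 0 and 0.215 CPM, and Col1a1, of fibroblasts, 1.91, 2.07 and 1.97 CPM and 2.15, 2.62 and 0.989 CPM. Krt14, a basal keratinocyte keratin, had at most 2 reads in the DKO libraries and 16.9, 16.1 and 19.3 CPM in the TKO, at least 129.8-fold higher, and with TFE3 present its level was 7.74 ± 1.24 CPM (MITF/TFEB DKO). The melanocyte marker Dct, in contrast, was at 12750, 12720 and 13660 CPM in the TKO.

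Loss of TFEB could be read in 3 other backgrounds without the 6 libraries compared so far, with TFE3 alone present (MITF/TFEB DKO against MITF KO), with MITF alone present (TFEB/TFE3 DKO against TFE3 KO) and with both (TFEB KO against the parental cells). From here on, "with TFE3 present" and "with MITF present" mean the first 2 of these. With TFE3 present and MITF absent, 824 genes were upregulated (6.86%) and 479 downregulated (3.99%). With MITF present and TFE3 absent, 204 (1.7%) and 105 (0.874%) were. In the parental background, with both present, 22 (0.183%) and 70 (0.583%) were called. Of the 682 genes upregulated with loss of TFEB as the last factor, 331 (48.5%, and 40.2% of the 824) were upregulated with TFE3 present, and 9 were downregulated. Of the 688 downregulated genes, 226 (32.8%, and 47.2% of the 479) were downregulated there and 114 (16.6%) upregulated. With MITF present, 27 of the 682 (3.96%) were upregulated, and 5 of the 688 (0.727%) were downregulated while 51 (7.41%) were upregulated. With both present, 50 of the 688 (7.27%, and 71.4% of the 70) were downregulated and 2 upregulated, and 6 of the 682 (0.88%, and 27.3% of the 22) were upregulated and 3 downregulated.

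The difference between the effects was tested itself. The change with loss of TFEB was more positive without TFE3 than with it by at least 1 on the log2 scale in 404 genes (3.36%) and more negative in 556 (4.63%). Against the background with MITF it was more positive in 900 genes (7.49%) and more negative in 1042 (8.68%). Of the 57 interferon genes 56 were among the 556, and their median change was 4.84 with TFE3 present and -2.85 without it. The list had a median of 0.33 with MITF present and of -0.97 with both factors present. Usp18 changed by 7.36 with TFE3 present and by -5.97 without it, a difference of -13.33 (SE 0.17, adjusted p = 2.1e-25). Of 51 mitotic genes 11 were among the 404, and of 13 class I genes 11 were among the 556. Of 18 contractile genes and YAP targets 1 differed upward, Tagln2, a transgelin that changed by -3.64 with TFE3 present and by 1.87 without it, and 2 downward, Myl9 and Actg2. Of 37 melanin genes 4 differed downward, Gpr143, Oca2, Trpm1 and Slc7a11. Slc7a11 is also a member of the ATF4 list, so the counts of the melanin and ATF4 lists are not fully separate.

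Melanin genes had a median of -0.54 with TFE3 present and contractile genes one of 1.08, against -0.65 and 1.46 without it. Tyr changed by -3.02 with TFE3 present, -3.44 without it and 0.27 with MITF present. Acta2 changed by 5.73, 5.48 and 0.09, and Fn1 by 2.94, 4.24 and -0.20. Of the 37 melanin genes 15 had a more negative change and 1 a more positive one than with MITF present, and of the 18 contractile genes 12 a more positive and 4 a more negative one. The ATF4 list had a median of -0.98 with TFE3 present and 0.37 with MITF present, and 18 of its 40 members had a more negative change than with MITF present. Trib3 changed by -2.61, -3.05 and 1.81. Dpp7 and Ctsa, of the lysosome, changed by -0.30 and -0.27 with TFE3 present, against -2.21 and -1.48 without it, differences of -1.91 (adjusted p = 8.1e-09) and -1.21 (adjusted p = 2.6e-08). They are not typical of their list. Of the 50 lysosomal hydrolases and activators 3 differed downward and 1 upward from the loss with TFE3 present. Among all genes 4.63% differed downward and 3.36% upward.

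**Figure D5:**
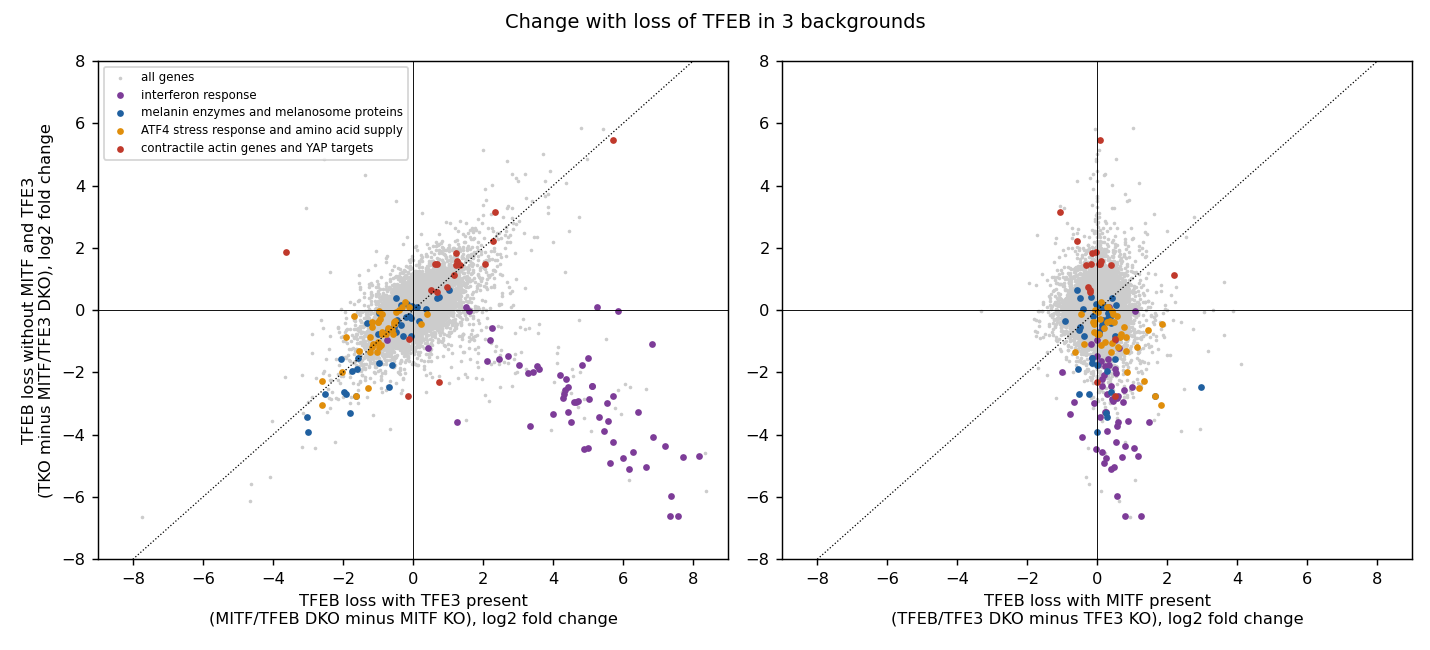
Log2 fold change of every gene with loss of TFEB without MITF and TFE3 (y axis) against its change with loss of TFEB with TFE3 present (left, x axis) and with MITF present (right, x axis), where the dotted line marks equal change and 4 gene lists are coloured. Interferon genes lie at the lower right of the left panel, with medians of 4.84 and -2.85, and contractile genes, with medians of 1.08 and 1.46, melanin and ATF4 genes mostly lie nearer the line there, with Tagln2 apart at the upper left.

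The share of promoters with each motif was compared with that of all genes. TCACGTGA was in the promoter of 7 of 552 downregulated genes with a promoter (1.27%), 6 of 532 upregulated genes (1.13%) and 222 of 9647 genes in all (2.3%). CACGTG was in 54 (9.78%), 49 (9.21%) and 1155 (12%). Both shares among called genes lay below that of all genes. Lysosomal hydrolases had TCACGTGA in 5 of 38 promoters (13.2%), V-ATPase subunits in 3 of 12 (25%) and lysosomal membrane proteins in 5 of 21 (23.8%). CATGTG was in 94 of the downregulated genes (17%), 62 of the upregulated (11.7%) and 10% of all, and in 12 of 31 melanin genes (38.7%). The ISRE core was in 66 of the downregulated genes (12%) against 3.55% of all, in 24 of 43 interferon genes (55.8%) and in 8.54% of the downregulated genes outside that list. The element TGATGNAAN was in 33 of the downregulated genes (5.98%), 2.56% of all and 11 of 33 genes of the ATF4 list (33.3%). A match shows these letters in the window and does not show binding.

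Stretches of neighbouring genes shifted together between the clones. Among 9340 genes with a position and a mean of at least 5 CPM, 2129 (22.8%) lay where the median log2 fold change of the 100 nearest genes was at least 0.3 from that of all genes, and 317 of the 923 called genes among them (34.3%) did. Medians of such stretches ran from -0.77, on chromosome 8, to 0.61, on the X chromosome. Chromosome 7 had a median of 0.46, chromosome 1 of 0.33 and X of 0.31, while chromosome 19 was at -0.44 and chromosome 12 at -0.33. When a change of 2-fold relative to the 100 neighbours was asked for as well, 463 genes were called higher and 492 lower. Relative to their neighbours, the interferon list had a median of -2.85, the contractile list of 1.44, the mitotic list of 0.50, the melanin list of -0.82 and the ATF4 list of -0.85. The medians of the stretches were alike where TFEB was lost with TFE3 present (Pearson r = 0.82 across 9340 genes, whose windows overlap) and not where it was lost with MITF present (r = -0.13). Which clone the TKO was made from is not given in the sources used here, so that a shared origin of the TKO and the MITF/TFEB DKO and a shared effect of losing MITF and TFEB cannot be told apart. The part of these shifts in the other results was not tested.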

How the data were processed

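The authors sequenced QuantSeq 3′ libraries of 24 samples, trimmed the reads (Trim Galore 0.6.5, cutadapt 2.10), aligned them to mm39 with STAR 2.7.8a and scaled them with edgeR, per the study's methods and the submitters' processing notes. The deposited signal is a table of 12010 genes in CPM after between-library (TMM) scaling, a unit inferred from its values. Whole reads were recovered for 99.99% of values in the lowest library, within 0.05 of a read. The design had assumed plain CPM, and the test was the same.

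Values were tested as log2(CPM + 1) with limma 3.58.1 in 1 fit over the 8 lines (16 residual degrees of freedom), with Benjamini-Hochberg adjustment over all genes and two-sided p-values. Differences between losses of TFEB were tested as contrasts in that fit. edgeR 4.0.16 on the recovered reads was an alternative, with other pseudocounts, filters and scalings and each library left out. On simulated data for the TKO against the MITF/TFE3 DKO, limma recovered 95.3% of 107 genes changed by 2 (log2) and 91.4% of 93 changed by 1.5. The simulation gave every gene and line the same spread and did not copy the spread between these libraries. Named genes were the 12 largest rises and falls, the 8 largest changes of each list, lists of up to 20 whole, the genes the study names, and the 4 largest differences in each direction between backgrounds. Members and lists were chosen with earlier results of these data known, and the motifs CATGTG, the ISRE core and TGATGNAAN after the values were seen. No 2 libraries of a line were alike within sampling noise (chi-square per degree of freedom of at least 4.58). The Dixon test for single samples needs more than 3 per group and was not run. Some named genes are not reported here.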

Additional observations from a re-analysis of the deposited data

Results flagged for a closer look

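The results below were picked out by a test of the difference between 2 losses of TFEB. Against the loss with TFE3 present, the change was more positive in 404 genes and more negative in 556. The largest negative differences on the log2 scale were those of Iigp1 (-14.18), Mndal (-14.18), Ifi44 (-13.96) and Usp18 (-13.33), and the largest positive ones those of Rny3 (7.38), Rny1 (5.71), Tagln2 (5.505) and Tslrn1 (3.13). For the 4 interferon-induced genes the MITF KO and the TKO were near 0 while both DKOs were high. For the Y RNAs, the MITF KO and the TKO were the high lines. Where a line lay near 0, as for these 4 genes, Tagln2 and Tslrn1, the fitted difference depends on the pseudocount and is no bound.

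Against the loss with MITF present, 900 genes had a more positive change and 1042 a more negative one. Ifi44 (-7.87), Lgals3 (-7.57), Iigp1 (-7.40) and Car14 (-6.72) had the largest negative differences, and Sorbs2 (5.89), Acta2 (5.395), Tslrn1 (5.09) and Gm773 (5.002) the largest positive ones. Libraries of Ifi44, Iigp1, Lgals3, Sorbs2, Acta2, Tslrn1 and Gm773 lay at or near 0, and the same limit holds for their values. edgeR on the recovered reads did not call the differences of Acta2 (2.94, adjusted p = 0.876), Gm773 (12.45, adjusted p = 1) and Tslrn1 (5.32, adjusted p = 0.936).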

How the results depend on the processing

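With a pseudocount of 5 in place of 1, the TKO had 367 genes higher and 359 lower than the MITF/TFE3 DKO, the difference from the loss of TFEB with TFE3 present had 178 and 271, and that from the loss with MITF present 482 and 540. At a mean of at least 5 CPM the lower counts of these differences were 328 and 688, where fewer genes were tested. edgeR on recovered reads called 887 higher and 976 lower in the main comparison, and no filter, scaling or pseudocount moved the share of higher calls outside 47.6% to 50.6%. Leaving out each library in turn gave 661 to 715 higher and 686 to 712 lower genes, 372 to 482 and 533 to 663 for the difference with TFE3 present, and 820 to 1096 and 972 to 1131 for that with MITF present.

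Same-numbered libraries did not pair (correlations of -0.31, -0.12 and 0.12 between the TKO and the MITF/TFE3 DKO), and the fit with the replicate number as a block gave 682 and 689 genes, with 404 and 558 and with 903 and 1042 for the differences. The named genes were followed by whether they passed the test at any size, not by 2-fold calls. In the settings other than leaving out a library, passing was lost 9 times, gained 9 times and unchanged 2517 times. With a library left out it was lost 33 times, gained 5 times and unchanged 1678 times. No value that passed the test turned its sign. Downregulated members of the ATF4 list went from 14 to 9 with a pseudocount of 5. Those of the V-ATPase list went from 1 to 3 with a pseudocount of 0.25. edgeR lost the differences of Acta2, Gm773 and Tslrn1 from the loss with MITF present. The medians of the proteasome list (-0.07, and 0.01 without MITF/TFE3 DKO replicate 1) and the WNT list (-0.03, and up to 0.31 at a mean of at least 5 CPM) changed sign. The cause was not tested. Genes with few reads are limited by depth, with at most 3 reads in both lines for 25.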
